A study of Mus musculus with 6 samples.

Results

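The Arg1/Hmox1/Gpnmb macrophages are macrophage nuclei, nearly all of injured periosteum. They carried at least as much RNA of the Arg1, Hmox1, Gpnmb, Msr1 and Clec4d genes as of the Mrc1, Hpgds, Fcrls and F13a1 genes. They were chosen from the measured UMIs (unique molecular identifiers, each standing for 1 captured RNA molecule). A nucleus was a member when Ptprc, Adgre1 and Dock2 together gave 2 or more UMIs, the first 5 genes gave an A score of 4 or more that was at least the M score of the other 4, and fewer than 2 of the osteoclast genes Ctsk, Acp5, Ocstamp and Oscar were detected. This rule took 374 of 8073 kept nuclei, out of 13551 barcodes. The study followed single nuclei of the tibial periosteum before and after an open, non-stabilized fracture in C57BL6 mice that were 12 weeks old and of both sexes. It holds 2 libraries of uninjured periosteum and 4 libraries of periosteum with hematoma, 2 at day 3, 1 at day 5 and 1 at day 7 after fracture. Nuclei of 4 uninjured mice, or of 4 to 9 mice for days 5 and 7, were pooled per library, so that no value belongs to a single animal, and no group carried a treatment or a modified gene that the labels name. Uninjured tissue was periosteum freed of marrow, whereas fracture tissue also took in the blood clot, which is therefore part of the fracture libraries alone.

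Macrophages enter a fracture hematoma as monocytes and clear red cells, dead cells and debris before cartilage and bone are laid down. Haemoglobin taken up in this way is broken down by heme oxygenase 1 (Hmox1), which opens the heme ring and frees its iron, and the cell stores the iron in ferritin and meets the oxidative load with glutathione and thioredoxin enzymes, many of them targets of the transcription factor NRF2. Arginase 1 (Arg1) turns arginine into ornithine and urea and is a known gene of wound macrophages. Gpnmb encodes a transmembrane glycoprotein of lysosome-rich, lipid-loaded macrophages, Msr1 a scavenger receptor, and Clec4d a C-type lectin receptor of myeloid cells. Mrc1, the mannose receptor, and F13a1, coagulation factor XIII A, are among the genes that chose the Mrc1-high macrophages, against which the members were set.

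In the GRCm38 annotation Arg1 (ENSMUSG00000019987) lies on chromosome 10 at 24915221 to 24927484 on the minus strand, Hmox1 (ENSMUSG00000005413) on chromosome 8 at 75093621 to 75100589 on the plus strand, Gpnmb (ENSMUSG00000029816) on chromosome 6 at 49036546 to 49070929 on the plus strand, Msr1 (ENSMUSG00000025044) on chromosome 8 at 39581685 to 39642673 on the minus strand, and Clec4d (ENSMUSG00000030144) on chromosome 6 at 123262111 to 123275265 on the plus strand. All 5 are protein-coding, and reads over introns and exons were counted alike.

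The members carried the genes that define macrophages. Of 12 such genes, among them Csf1r, Cd68, Lyz2, Spi1, Tyrobp, Fcgr1, Cd14 and Mertk, 11 or 12 were detected in members of each of the 5 libraries that held any. Their summed level was 5809, 1580, 3099, 1934 and 1094 CPM (UMIs of a gene per 1000000 UMIs of the summed members) in uninjured replicate 2, day 3 replicates 1 and 2, day 5 and day 7. Cd14 was at 0 in uninjured replicate 2 and in day 3 replicate 1, and Fcgr1 at day 7. Genes of other cell types were present too. In the fracture libraries, stromal genes summed to between 675 and 3849 CPM in members and between 641 and 3851 CPM in Mrc1-high nuclei, neutrophil genes to between 35.6 and 538 CPM against between 80.1 and 378 CPM, and T and B lymphocyte genes to at most 95 CPM against 86.8 CPM. Endothelial genes summed to between 23.3 and 286 CPM in members and between 0 and 142 CPM in Mrc1-high nuclei, and erythroid and mast cell genes to at most 29.1 CPM in either class. Chondrocyte and osteoblast genes were higher in members at day 5 (318 against 225 CPM) and at day 7 (489 against 0 CPM). Genes of muscle fibres reached 3210, 1634, 58.8 and 7125 CPM in the members of day 3 replicates 1 and 2, day 5 and day 7. In the Mrc1-high nuclei of the same libraries they reached 4587, 889, 234 and 427 CPM. Of the 374 members, 79 held 3 or more UMIs of the 8 muscle fibre genes, and these counts come back beside each result they move with. They were 2 of 48 and 70 of 200 members at day 3, 0 of 104 at day 5 and 3 of 16 at day 7. The high sums of day 3 replicate 1 and day 7 thus rest on few nuclei.

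The libraries differed in depth, with 1499281 to 29796296 UMIs each and a median of 1283 to 4241 UMIs per kept nucleus. The second day 3 library was the deepest and held 200 of the 374 members, so it weighs most in the pooled values. Members had a median of 1908 and 6259 UMIs at day 3, 2745 at day 5 and 2025 at day 7. The barcodes of 2 members also occurred in another library.

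Members were nearly absent from uninjured periosteum and were most frequent at day 3. Uninjured replicate 1 held 0 members among 644 kept nuclei, and a count of 0 allows a share of up to 0.466% by the limit of 3 counts and 0.571% by the Clopper-Pearson limit. Uninjured replicate 2 held 6 members, which is 0.508% of its nuclei (95% Clopper-Pearson interval 0.187 to 1.10%). At day 3 the shares were 6.37% (48 nuclei, interval 4.74 to 8.36%) and 11.6% (200 nuclei, 10.2 to 13.2%). At day 5 the share was 4.29% (104 nuclei, 3.52 to 5.18%) and at day 7 it was 1.18% (16 nuclei, 0.678 to 1.92%). These intervals cover counting error only, and with 1 library each days 5 and 7 have no replicate check. The mean was 0.254% ± 0.359 (SD, n = 2) in uninjured periosteum and 9.00% ± 3.71 (SD, n = 2) at day 3, and both day 3 libraries lay above both uninjured libraries. No test was run on the share, since the rule chose the nuclei on their UMIs.

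**Figure D1:**
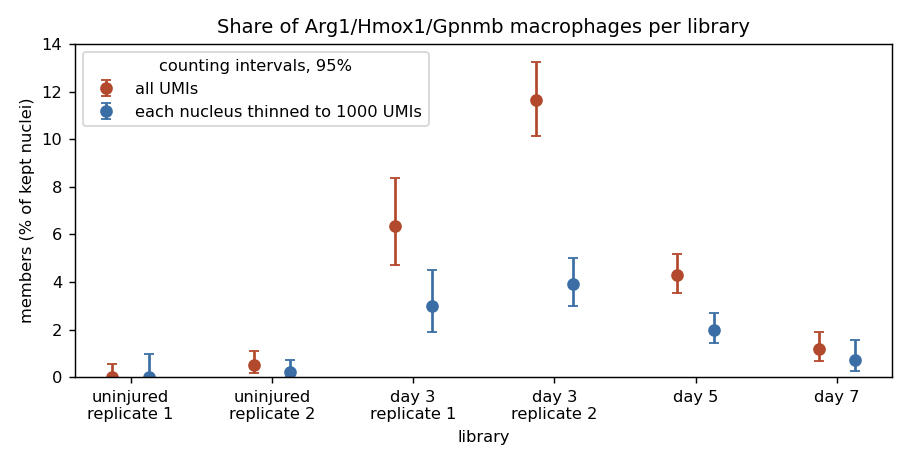
Share of Arg1/Hmox1/Gpnmb macrophages among the kept nuclei (y axis, percent) in each of the 6 libraries (x axis), from all UMIs and after each nucleus was thinned to 1000 UMIs; bars are 95% Clopper-Pearson intervals. The day 3 libraries are highest at 6.37% and 11.6%, and the order day 3, day 5, day 7 remains after thinning at 3.00% and 3.91%, then 2.00% and 0.719%.

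A fixed UMI minimum is met more easily by deeper nuclei. With every nucleus thinned to 1000 UMIs the shares were 0% and 0.206% in uninjured periosteum, 3.00% and 3.91% in the day 3 libraries, then 2.00% and 0.719% on days 5 and 7, and the day 3 libraries moved closer to each other. Among the nuclei that passed the immune limit alone, members made up 32.2% in day 3 replicate 1 and 20.0% in replicate 2, then 18.9% and 21.3% on days 5 and 7, against 6 of 68 immune nuclei (8.82%) in uninjured replicate 2. With members taken after thinning, these shares were 15.4% and 6.37% at day 3, 8.99% and 13% on days 5 and 7. In uninjured replicate 2 the share was 3.12%. Their denominator was still the nuclei that passed the immune limit on all UMIs (143 and 926 at day 3). The 2 counts thus differ in depth, and these shares do not rank the libraries. The immune nuclei as a whole numbered 6 and 68 in uninjured periosteum and 149, 999, 551 and 75 in the fracture libraries. A larger share of members in these pooled samples cannot be told apart from a smaller number of other nuclei. Without nuclei that held 3 or more muscle fibre UMIs the day 3 shares were 13.9% (46 of 330 nuclei) and 13% (130 of 1000 nuclei). With all nuclei they were 48 of 753 and 200 of 1720, so the shares rose while the members became fewer. In day 3 replicate 2, a looser limit of 5% mitochondrial UMIs with no ribosomal limit added 48 members (248 in all) and more than doubled the nuclei to 3927, which gave a share of 6.32%.

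The rule has edges inside a continuous range. The A score of members had a median of 10 UMIs and a maximum of 231, and their M score a median of 4. Just inside the first limit stood 50 members with an A score of 4, and just outside it 56 nuclei with a score of 3. In 22 members A equalled M, and in 21 nuclei outside A was 1 below M. A further 274 nuclei had an A score of 4 or more that was below M, 182 of them in day 3 replicate 2, so that most nuclei with this amount of A RNA carried the M genes as well. The osteoclast limit kept out 9 nuclei and the immune limit 87.

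The 5 genes of the A score were uneven across libraries. Hmox1 was highest in the members of day 3 replicate 1, with 2569 CPM (95% Poisson interval 2311 to 2849), against 716, 853 and 885 CPM in day 3 replicate 2, day 5 and day 7. Hmox1 UMIs were found in 81.2% of the members of day 3 replicate 1 after thinning, and in 30.1%, 42.0% and 28.6% in the other fracture libraries. The intervals of those 3 libraries overlap in part, and day 3 replicate 1 stood above all of them. Arg1 was at 299 and 562 CPM at day 3 and 243 CPM at day 5. At day 7 no Arg1 UMI was found among 42948 UMIs of the 16 members, which allows up to 69.9 CPM (3 counts). Gpnmb was at 548 and 785 CPM at day 3, at 1107 CPM at day 5 and at 1374 CPM at day 7, so the day 5 and day 7 libraries lay above both day 3 libraries. Msr1 was at 491, 834, 730 and 489 CPM and Clec4d at 221, 239, 473 and 279 CPM in the same order. These levels chose the members and are a description.

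In the fracture libraries Mrc1-high nuclei carried the 5 genes at lower CPM than members, except Arg1 at day 7, which was found in neither class. In uninjured replicate 2 they were higher for Msr1 (319 against 218 CPM) and Arg1 (48.4 against 39.7 CPM), and in day 3 replicate 1 the thinned share with Msr1 was 38.8% in Mrc1-high nuclei and 33.3% in members. Endothelial nuclei of all libraries, chosen by Pecam1, Cdh5 and Flt1 UMIs and without any Ptprc, Adgre1 or Dock2 UMI, gave a rough level of free RNA. Leaving out nuclei with those immune UMIs can also leave out nuclei that picked up macrophage RNA, so this level may be too low. Pooled over libraries and thinned to 1000 UMIs, Arg1 was found in 18.7% of members, 11% of Mrc1-high nuclei and 0.336% of endothelial nuclei. Hmox1 was found in 40.1%, 15.4% and 1.17%, Gpnmb in 39.8%, 12.7% and 0.503%, Msr1 in 45.6%, 28.6% and 0.336%, and Clec4d in 22.8%, 13.5% and 0%. Without thinning the share of members with a UMI was 26.5% for Arg1, 58.8% for Hmox1, 56.7% for Gpnmb, 70.6% for Msr1 and 50.3% for Clec4d. The median depth was 4006 UMIs in members, 3823 in Mrc1-high nuclei and 3207 in endothelial nuclei. Pooled over libraries, the endothelial share was far below the share of either macrophage class for each of the 5 genes. Of the 664 endothelial nuclei, however, 124 and 236 came from the uninjured libraries and 31 from day 3 replicate 2. In day 3 replicate 2 alone, Hmox1 was found after thinning in 30.1% of members, 12.5% of Mrc1-high nuclei and 9.68% of endothelial nuclei. Members were not free of the other genes, and Mrc1 was found in 23.6% and F13a1 in 40.9% of them, against 63.5% and 70.2% of Mrc1-high nuclei.

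**Figure D2:**
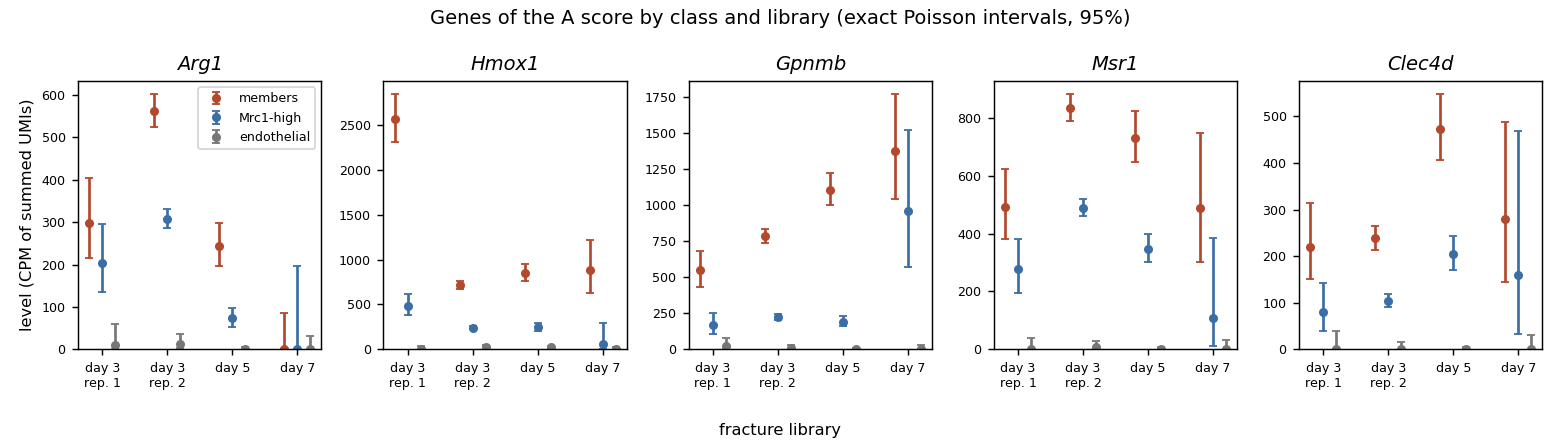
Level of the 5 genes of the A score (y axes, CPM of summed UMIs, each panel with its own scale) in members, Mrc1-high nuclei and endothelial nuclei of the 4 fracture libraries (x axes); bars are 95% exact Poisson intervals and cover counting error only. Endothelial nuclei stay near 0, Hmox1 stands highest in day 3 replicate 1 (2569 CPM), and Gpnmb is higher at days 5 and 7 (1107 and 1374 CPM) than in either day 3 library.

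Few members carried all 5 genes at once. Of the 374 members, 66 held UMIs of 1 of the 5 genes, 119 of 2, 101 of 3, 64 of 4 and 24 of all 5. Arg1 and Gpnmb were found together in 49 members and neither was found in 112, where Hmox1, Msr1 or Clec4d had carried the score. The 6 members of uninjured replicate 2 held 42 Gpnmb UMIs (833 CPM) and 48 Hmox1 UMIs (952 CPM) but 2 Arg1 UMIs (39.7 CPM), and 4 of these 6 nuclei also held 3 or more muscle fibre UMIs. With 6 nuclei from a single library these levels describe those nuclei and no more.

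The members were next compared with Mrc1-high nuclei on genes that the rule had not used. Mrc1-high nuclei met the same immune and osteoclast limits, with an M score of 4 or more and above A, and numbered 623. UMIs were summed per class in each of the 4 fracture libraries, which held 48, 200, 104 and 16 members and 50, 308, 218 and 11 Mrc1-high nuclei, and edgeR's quasi-likelihood test was fitted with the library as a block and without the 16 genes of the rule. Both classes were gated on UMIs of the same nuclei, so a gene called here is one that varied together with the gate. The members were higher in glutathione, thioredoxin and ferritin genes, in some lysosomal and lipid-handling genes and in the elastase Mmp12, and lower in the receptor Cd163 and the resident macrophage genes Cbr2, Selenop and Maf. Of 5891 genes tested, 121 (2.05%) were called at an adjusted p under 0.05, 64 of them higher (1.09%) and 57 lower (0.968%) in members, and 37 and 44 of these, respectively, went the same way in all 4 libraries. At day 7 the 11 Mrc1-high nuclei held 18735 UMIs, so that 0 CPM there allows up to 160 CPM (3 counts). Where both day 7 values lie under that limit, day 7 does not settle a direction, and the counts of 37 and 44 include such genes. The calls rest largely on day 3 replicate 2, the deepest library, and without it 4 genes were higher and 1 lower.

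The list for heme, iron and oxidative stress held the most called genes. Of its 24 tested genes 7 were higher in members and 0 lower, a share of 29.2% against 1.09% of all tested genes, and the median log2 difference was 0.51 against 0.04 over all genes. Hmox1 itself belonged to the rule and was not in the list. The 7 genes were Slc7a11, Gclc, Gclm, Gsr, Prdx1, Txnrd1 and Fth1. Gclc was named after its values were seen, the others by the rule for named genes.

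Slc7a11, the cystine importer that feeds glutathione synthesis, was at 221, 429, 428 and 93.1 CPM in the members of day 3 replicates 1 and 2, day 5 and day 7. In Mrc1-high nuclei it was at 87.4, 41.5, 161 and 0 CPM. The members were higher in all 4 libraries, by 2.33 on the log2 scale (SE 0.26, edgeR adjusted p = 2.2e-07), though both day 7 values lay under the limit of 160 CPM. Gclc and Gclm encode the catalytic and modifier subunits of the ligase that makes the first step of glutathione synthesis. Gclm was at 228, 139, 104 and 116 CPM against 29.1, 54.4, 51.0 and 107 CPM, a log2 difference of 1.42 (SE 0.25, edgeR adjusted p = 0.00040). For Gclc the log2 difference was 1.51 (SE 0.25, edgeR adjusted p = 0.00016), and the day 7 library went slightly the other way with 46.6 against 53.4 CPM.

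Prdx1, a peroxidase of the cytosol, was at 335, 388, 372 and 116 CPM in members against 116, 137, 142 and 0 CPM, a log2 difference of 1.49 (SE 0.19, edgeR adjusted p = 3.0e-06). The 2 classes did not overlap in the first 3 libraries, where every member value lay above every Mrc1-high value. Gsr, which restores reduced glutathione, was higher by 1.20 (SE 0.21) and Txnrd1, thioredoxin reductase, by 0.96 (SE 0.21), both in 4 of 4 libraries. Fth1, the ferritin heavy chain, was at 128, 432, 128 and 69.9 CPM against 43.7, 220, 65.4 and 0 CPM, a log2 difference of 1.05 (SE 0.21, edgeR adjusted p = 0.0022). The day 7 values of Prdx1 and Fth1 lay under the limit of 160 CPM in both classes. All 7 genes remained called after nuclei with muscle fibre RNA were left out, 5 without the day 5 library, and 0 without day 3 replicate 2, where 16 of the 20 genes then tested still had a higher level in members and the median log2 difference was 0.46.

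Promoters of these genes were read from RefSeq (build GRCm38.p6, 250 bases before to 50 after the annotated start). They are shown because the antioxidant response element, to which NRF2 binds, is the best known control sequence of this group. Of the 7 genes 5 had a promoter in the table, and 3 of the 5 held the letters TGACNNNGC on either strand. The first 3 sequences carry this match in capitals, and Gpnmb carries an AP-1 site (TGANTCA) in capitals. In Prdx1 the element also contains an AP-1 site, since the letters overlap.
Gclm, chr3:122245307-122245606, plus strand: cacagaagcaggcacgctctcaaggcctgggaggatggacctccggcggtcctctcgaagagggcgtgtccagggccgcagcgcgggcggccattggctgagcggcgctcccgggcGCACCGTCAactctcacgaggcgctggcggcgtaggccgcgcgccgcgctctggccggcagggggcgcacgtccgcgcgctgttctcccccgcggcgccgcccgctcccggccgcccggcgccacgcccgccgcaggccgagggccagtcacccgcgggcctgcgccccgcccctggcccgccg
Prdx1, chr4:116685349-116685648, plus strand: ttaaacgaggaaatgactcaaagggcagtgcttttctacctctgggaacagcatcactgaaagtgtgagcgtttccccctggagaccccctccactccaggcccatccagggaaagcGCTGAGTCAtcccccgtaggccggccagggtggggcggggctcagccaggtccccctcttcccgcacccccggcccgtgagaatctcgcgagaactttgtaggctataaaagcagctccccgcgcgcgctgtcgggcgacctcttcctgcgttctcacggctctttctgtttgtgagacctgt
Txnrd1, second of 3 listed starts, chr10:82858956-82859255, plus strand: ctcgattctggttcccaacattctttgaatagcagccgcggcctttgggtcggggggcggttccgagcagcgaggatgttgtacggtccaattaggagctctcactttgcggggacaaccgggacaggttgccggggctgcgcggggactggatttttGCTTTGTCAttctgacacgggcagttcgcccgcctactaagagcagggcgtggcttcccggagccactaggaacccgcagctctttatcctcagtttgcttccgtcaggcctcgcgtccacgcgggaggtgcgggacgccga
Gpnmb, chr6:49036268-49036567, plus strand: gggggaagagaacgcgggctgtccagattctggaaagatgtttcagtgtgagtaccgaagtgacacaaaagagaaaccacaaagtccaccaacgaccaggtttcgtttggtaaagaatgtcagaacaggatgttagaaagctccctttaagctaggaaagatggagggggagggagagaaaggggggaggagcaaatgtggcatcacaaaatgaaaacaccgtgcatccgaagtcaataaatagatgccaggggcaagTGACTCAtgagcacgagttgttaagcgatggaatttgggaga
The matches began 134, 133 and 92 bases before the start in Gclm, Prdx1 and Txnrd1, and 8 bases after it in Gpnmb. The windows of Slc7a11 and Fth1 held no match to TGACNNNGC. Over all called genes with a promoter, the antioxidant response element was found in 22.9% of the 48 higher and 24.5% of the 49 lower genes, against 18.4% of tested and 14% of all genes. The AP-1 site was found in 14.6% of higher and 10.2% of lower genes against 6.73% of tested genes, and the PU.1 core GAGGAA in 24 of 48 and 38.8% against 32.5%. The E-box CACGTG was found in 4.17% and 4.08% against 12.2%, and the hypoxia core ACGTG, which lies within CACGTG, in 25% and 12.2% against 30.4%. A match is a description of the letters and not a bound site.

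Of 28 tested genes for lysosome and lipid handling, 5 were higher in members (17.9% against 1.09% of all tested genes) and 1, Apoe, was lower, with a median log2 difference of 0.20. Spp1 encodes osteopontin, a secreted matrix protein. It was at 826, 1187, 597 and 303 CPM in members and 262, 717, 201 and 0 CPM in Mrc1-high nuclei, a log2 difference of 1.27 (SE 0.20, edgeR adjusted p = 5.2e-05). Lgals3, galectin 3, which gathers on damaged lysosomes, was at 327, 415, 605 and 605 CPM against 189, 207, 185 and 267 CPM, higher by 1.24 (SE 0.18, edgeR adjusted p = 2.1e-05). Every member library of Lgals3 lay above every Mrc1-high library. Atp6v0d2, a subunit of the proton pump of lysosomes and osteoclasts, was higher by 1.69 (SE 0.27), though in day 3 replicate 1 it stood at 7.12 against 14.6 CPM. Cd9 and Lpl were the other members of the list that were higher, named after their values were seen, at 1.58 (SE 0.26) and 1.31 (SE 0.32), and Lpl went the other way at day 7, with 69.9 against 214 CPM. Without nuclei that held muscle fibre RNA, Lpl had a log2 difference of 1.18 (edgeR adjusted p = 0.061). Apoe, the lipid carrier, was lower by 0.81 (log2 difference -0.81, SE 0.22, edgeR adjusted p = 0.042), and at day 7 it was at 23.3 CPM in members and 0 CPM in Mrc1-high nuclei.

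**Figure D3:**
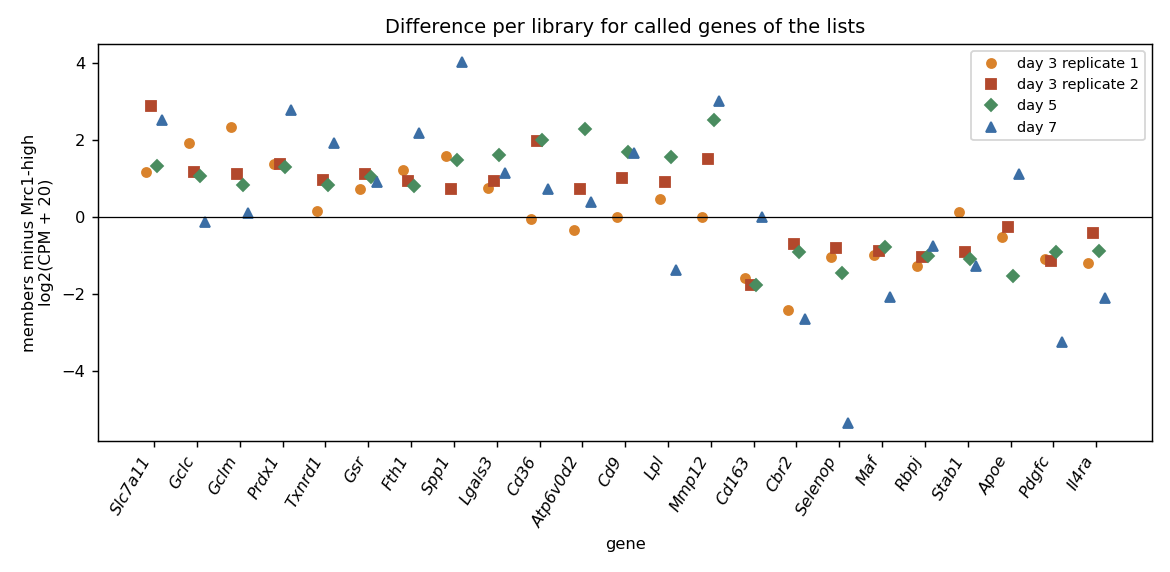
Members minus Mrc1-high nuclei in each fracture library (y axis, difference of log2(CPM + 20)) for called genes of the gene lists (x axis), with 1 point per library. The redox genes from Slc7a11 to Fth1 lie above 0 in nearly every library, with Gclc at day 7 below it, and the genes from Cbr2 to Rbpj lie below 0 in all 4.

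The scavenger receptors moved in both directions. Of 18 tested genes for phagocytosis and complement, Cd36 and Itgax were higher and Stab1 and Cd163 lower, with a median log2 difference of -0.36. These calls were 11.1% of the list in each direction, against 1.09% higher and 0.968% lower of all tested genes. Cd36, a receptor for oxidized lipids and dead cells, was at 285, 515, 984 and 536 CPM in members and 299, 117, 234 and 320 CPM in Mrc1-high nuclei, a log2 difference of 1.67 (SE 0.23, edgeR adjusted p = 7.0e-06). In day 3 replicate 1 the values of the 2 classes were nearly equal. Itgax, the integrin CD11c, was low in both classes, at 21.4 to 93.1 CPM in members and 0 to 11.7 CPM in Mrc1-high nuclei (log2 difference 1.81, SE 0.49). Cd163, the receptor for haemoglobin bound to haptoglobin, was at 49.8, 3.52, 0 and 0 CPM in members and 189, 60.5, 47.8 and 0 CPM in Mrc1-high nuclei. It was lower in the 3 libraries that held it, by a log2 difference of -3.37 (SE 0.48, edgeR adjusted p = 1.2e-05). Stab1, another scavenger receptor, had a log2 difference of -0.77 (SE 0.19) and was slightly higher in the members of day 3 replicate 1, at 541 against 495 CPM.

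Of 13 tested genes of resident macrophages, 3 were lower in members (23.1% against 0.968% of all tested genes) and 0 higher, 12 had a negative log2 difference, and their median was -0.50. DESeq2 called 1 of the 13, and edgeR called 0 after thinning, without nuclei holding other RNA, with no library block or without day 3 replicate 2, where the medians were -0.20, -0.65, -0.37 and -1.03. Cbr2, a carbonyl reductase, was at 0, 4.93, 0 and 0 CPM in members and 87.4, 21.2, 17.5 and 107 CPM in Mrc1-high nuclei (log2 difference -3.01, SE 0.70, edgeR adjusted p = 0.012). Selenop, which carries selenium, was at 28.5, 260, 29.4 and 0 CPM against 80.1, 475, 116 and 801 CPM (-1.34, SE 0.26). Maf, a transcription factor of resident macrophages, was at 192, 391, 463 and 186 CPM against 400, 748, 815 and 854 CPM (-0.97, SE 0.17, edgeR adjusted p = 0.00040). Rbpj, the DNA-binding partner of Notch signals, was the other called gene among 20 tested transcription factors, with 569, 701, 690 and 722 CPM in members and 1413, 1470, 1422 and 1228 CPM in Mrc1-high nuclei. Maf and Rbpj made up 10% of that list, against 0.968% of all tested genes called lower. All 4 member values of Rbpj lay below all 4 Mrc1-high values (log2 difference -1.04, SE 0.17, edgeR adjusted p = 0.00010).

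Signal and matrix genes were called in small numbers. Of 19 tested growth factor and matrix genes 1 was higher and 1 lower (5.26% each, against 1.09% higher and 0.968% lower of all tested genes). Mmp12, the macrophage elastase, was at 0, 44.3, 120 and 140 CPM in members and 0, 3.02, 4.78 and 0 CPM in Mrc1-high nuclei, a log2 difference of 4.14 (SE 0.53, edgeR adjusted p = 3.0e-06), and was not found in either class of day 3 replicate 1. Pdgfc, a growth factor for stromal cells, was at 149, 142, 332 and 116 CPM against 342, 343, 639 and 1281 CPM (-1.27, SE 0.19, edgeR adjusted p = 3.4e-05). Il4ra, the interleukin 4 receptor chain whose signal induces Arg1 in macrophages, was lower in members in all 4 libraries, at 235, 229, 74.9 and 46.6 CPM against 568, 315, 155 and 267 CPM (-0.84, SE 0.20, edgeR adjusted p = 0.012). It was the 1 called gene of 9 tested for arginine and alternative activation (11.1% lower, against 0.968% of all tested genes). In that list Sat1 had a log2 difference of -0.12 (SE 0.20) and Il13ra1 one of 0.14 (SE 0.25).

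Other lists held few or no called genes. None of 24 tested genes for hypoxia and glycolysis, 9 cytokines and chemokines, 10 genes for antigen presentation, 8 lectins and myeloid receptors and 6 cell cycle genes was called by edgeR, with 1, 2, 0, 4 and 0 of them at an unadjusted p under 0.05. Of all 5891 tested genes 2.05% were called, so 0 calls in lists of this size lie near that share and say little about them. Hif1a, the oxygen-regulated transcription factor, had a log2 difference of 0.22 (SE 0.17), the glycolytic enzyme Pkm of 0.35 (SE 0.20), Nfkb1 of -0.03 (SE 0.18), Nfkbiz of -0.05 (SE 0.24), Cd86 of -0.24 (SE 0.24), Cd74 of -0.10 (SE 0.26), the inhibitory receptor genes Sirpa and Lilrb4a of -0.18 (SE 0.17) and 0.50 (SE 0.19), and Diaph3 and Ezh2 of -0.08 (SE 0.24) and -0.08 (SE 0.27). Of 10 monocyte genes, Gsr alone was called (10% higher, against 1.09% of all tested genes), while Cd44 was at 0.35 (SE 0.17) and Samhd1 at -0.27 (SE 0.19). Of 10 genes of osteoclast precursors, Atp6v0d2 alone was called (10% higher, against the same 1.09%), and Mitf and Itgav, an integrin chain, were both at 0.07 (SE 0.17 and 0.18). Atp6v0d2 and Maf each stand in 2 of the lists.

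Among the largest differences outside the lists, Il7r, the interleukin 7 receptor chain, was at 49.8, 92.2, 257 and 186 CPM in members and 36.4, 25.9, 35.1 and 0 CPM in Mrc1-high nuclei (log2 difference 2.16, SE 0.30, edgeR adjusted p = 9.4e-06). Plpp3, a phosphatase of lipid phosphates, was higher by 1.72 (SE 0.24), Arhgap6, an activator of small GTPases, by 1.5 (SE 0.24) and Rnf128, a ubiquitin ligase, by 1.42 (SE 0.24). On the lower side stood the interferon-induced helicase Ddx60 (-1.5, SE 0.20), the lipid transporter Abca9 (-1.78, SE 0.28), the sialic acid lyase Npl (-1.37, SE 0.27), and Plekhg5 (-2.18, SE 0.43), Gm4951 (-2.04, SE 0.44), Scamp5 (-1.66, SE 0.34) and Rhobtb1 (-1.35, SE 0.31). Ddx60 was at 56.9, 217, 99.0 and 140 CPM in members and 240, 482, 297 and 1174 CPM in Mrc1-high nuclei, lower in each library. On the higher side 3 of the 10 largest are genes of striated muscle or active in it. Esrrg (1.79, SE 0.34), Fbxo32 (1.72, SE 0.27), the ubiquitin ligase of wasting muscle, and Myo18b (1.41, SE 0.36) were each higher in members in 4 of 4 libraries. The summed muscle fibre genes were higher in members in day 3 replicate 2 and at day 7, and lower in day 3 replicate 1 and at day 5. Fbxo32 was at 434, 163, 50.8 and 303 CPM in members and 58.2, 50.1, 38.3 and 0 CPM in Mrc1-high nuclei.

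Without nuclei that held 3 or more muscle fibre UMIs, 97 of the 121 called genes were called again in the same direction. On the higher side 46 of 64 were called again, 11 were no longer tested and 7 were tested but not called, and on the lower side 51 of 57 were called again. Fbxo32 then had a log2 difference of 0.01, and Esrrg and Myo18b were no longer tested, while Slc7a11 was at 2.40, Mmp12 at 4.62, Cd36 at 2.14 and Cd163 at -3.19.

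**Figure D4:**
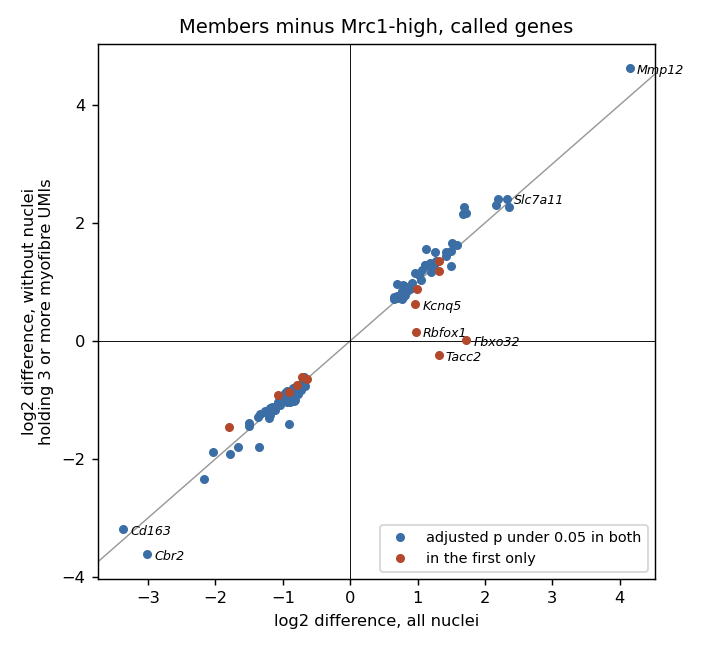
Log2 difference between members and Mrc1-high nuclei for the called genes that were tested in both fits, from all nuclei (x axis) and without nuclei holding 3 or more muscle fibre UMIs (y axis); points are genes, coloured by whether the call was kept, and the grey line marks equality. Slc7a11, Mmp12, Cd163 and Cbr2 keep their direction and their call, whereas Fbxo32, Tacc2, Rbfox1 and Kcnq5 move towards or past 0 and lose it.

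Within the members, Arg1 and Gpnmb split the nuclei in a way that differed between days. Members with more Arg1 than Gpnmb UMIs are called Arg1-leading and the opposite Gpnmb-leading. Arg1-leading members were 25% and 22% at day 3 (12 and 44 nuclei), 18.3% at day 5 (19 nuclei) and 0 of 16 at day 7, which with 16 nuclei has a 95% upper limit of 20.6%. Gpnmb-leading members were 29.2% and 45.0% at day 3 (14 and 90 nuclei), 54.8% at day 5 (57 nuclei) and 87.5% at day 7 (14 of 16, interval 61.7 to 98.4%). In uninjured replicate 2, 4 of 6 members were Gpnmb-leading and 0 Arg1-leading. The remaining 120 members held equal counts, 112 of them neither gene. The rule used both genes, days 5 and 7 had 1 library each, and these shares are a description.

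**Figure D5:**
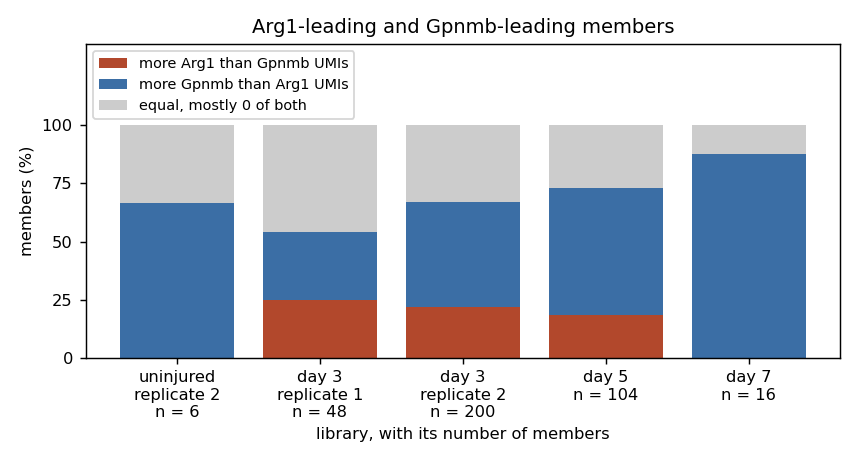
Arg1-leading, Gpnmb-leading and tied members (y axis, percent of members, stacked bars) in each library that held members (x axis, with the number of members). Arg1-leading members go from 25% and 22% at day 3 to 18.3% at day 5 and 0% at day 7, while Gpnmb-leading members reach 87.5% at day 7.

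The 2 kinds were compared on genes outside the rule in the 3 libraries with at least 10 nuclei of each. Arg1-leading members were higher in fibronectin and serglycin, and Gpnmb-leading members in Atp6v0d2 and in several genes of muscle fibres. Of 3875 genes tested, 14 (0.361%) were called by edgeR at an adjusted p under 0.05, 2 of them higher (0.0516%) and 12 lower (0.31%) in Arg1-leading members, with 156 and 175 at an unadjusted p under 0.05. Fn1, which encodes the provisional matrix protein fibronectin, was at 444, 2975 and 1963 CPM in Arg1-leading members of day 3 replicates 1 and 2 and day 5, and at 190, 314 and 402 CPM in Gpnmb-leading members (log2 difference 2.47, SE 0.39, edgeR adjusted p = 0.038). Srgn, the proteoglycan core of secretory granules, was at 88.9, 431 and 169 CPM against 14.6, 80.6 and 26.8 CPM (2.47, SE 0.39, edgeR adjusted p = 0.038). Each Arg1-leading value of Fn1 lay above each Gpnmb-leading value. Stromal genes summed to 133, 2489 and 4717 CPM in Arg1-leading members and 615, 1403 and 3205 CPM in Gpnmb-leading members, with 6 of 7 tested at a positive log2 difference and a median of 0.37, and their part in the Fn1 values was not tested. None of the 14 calls was left without TMM scaling, with an A score of 5 or more, with no library block or without day 5, and without day 3 replicate 1 a single gene was called.

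Atp6v0d2 was at 0, 12.8 and 56.5 CPM in Arg1-leading members and 14.6, 87.8 and 665 CPM in Gpnmb-leading members (log2 difference -3.17, SE 0.48, edgeR adjusted p = 0.038). Fam49a, a regulator of the actin cytoskeleton, was at 0, 35.2 and 0 CPM against 146, 278 and 62.5 CPM (-3.21, SE 0.56), and the adhesion gene Cadm1 at 0, 3.20 and 0 CPM against 58.6, 79.2 and 121 CPM (-4.87, SE 0.87). Most of the others are genes of striated muscle or abundant in it, with Ttn (-3.03), Ryr1 (-4.37), Pdlim3 (-3.86), Kcnq5 (-3.26), Sox6 (-2.95) and Akap6 (-2.93), while Park2 had a log2 difference of -1.86. Muscle fibre genes summed to 311, 371 and 113 CPM in Arg1-leading members and to 6297, 1778 and 40.2 CPM in Gpnmb-leading members. Nuclei with 3 or more such UMIs were 2 of 14, 33 of 90 and 0 of 57 Gpnmb-leading members and 0 of 12, 16 of 44 and 0 of 19 Arg1-leading members. The value of 6297 CPM thus rests on few nuclei. Without nuclei that held 3 or more muscle fibre UMIs, 7 genes were higher and 8 lower, and 4 of the original 14 calls were kept (Fn1, Srgn, Atp6v0d2 and Fam49a). Of the other 10, 6 were no longer tested. Cadm1 then had a log2 difference of -6.82 (edgeR adjusted p = 0.0505), Park2 of -1.62 (edgeR adjusted p = 0.058), Kcnq5 of -0.07 and Ttn of 0.63.

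The genes for hypoxia and glycolysis lay higher in Arg1-leading members without a single call. All 14 tested had a positive log2 difference, with a median of 1.05 against -0.02 over all genes tested, and 8 had an unadjusted p under 0.05. Hif1a was at 311, 479 and 1087 CPM in Arg1-leading members and 234, 249 and 585 CPM in Gpnmb-leading members (log2 difference 0.79, SE 0.28, edgeR adjusted p = 0.43), and Pkm was at 178, 515 and 311 CPM against 146, 166 and 187 CPM (1.09, SE 0.35, edgeR adjusted p = 0.33). The genes for heme, iron and oxidative stress lay the other way, with 5 of 21 positive, a median of -0.41 and 0 called by edgeR. The medians remained above 0 and below 0 without muscle fibre RNA, at 1.08 and -0.81. Without day 3 replicate 2 they were 0.50 over 5 genes, 4 of them positive, and 0.00 over 8 genes, so that these 2 group values rest on that library.

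Change with day was tested as a slope over the 4 fracture libraries. No gene passed the threshold among 4939 tested by edgeR (0% in either direction), with 89 rising and 117 falling at an unadjusted p under 0.05, while DESeq2 called 5 and 1. In simulated data of the same size, edgeR's fit recovered 6.52% of genes that had been changed by a log2 value of 2, so the fit could show few changes of that size. The levels are therefore given as values. Atp6v0d2, named after its values were seen, was at 7.12 and 47.2 CPM in members at day 3, 420 CPM at day 5 and 768 CPM at day 7, and edgeR's slope was 1.20 per day on the log2 scale (SE 0.24, adjusted p = 0.98). Il4ra was at 235 and 229 CPM at day 3, 74.9 CPM at day 5 and 46.6 CPM at day 7, and Spp1 at 826 and 1187, then 597 and 303 CPM. These 3 genes are shown because their values differed between day 3 and the later days, and how many other genes do so was not counted.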

How the data were processed

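Nuclei of 6 libraries had been profiled with the 10x Genomics 3' kit and mapped with introns and exons to mm10. The authors deposited raw UMI counts per gene and barcode, made with Cell Ranger 6.0.0 (uninjured replicate 1, days 5 and 7) or 7.1.0 (uninjured replicate 2 and day 3), as the matrix headers state, so that version and day partly go together. The members and gene lists were chosen with earlier results of these data known. The limits on a nucleus were those of the rule (200 to 5000 genes, less than 2% of UMIs from mt- genes and less than 1.5% from Rps and Rpl genes). They were counted over all entries that a library listed, 31055 to 32287 of them, and later steps used the 30406 genes listed for every library. Doublets marked by Scrublet (50 of 8073 nuclei, 5 of them members) were kept and left out as an alternative.

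UMI counts were summed per library and class and tested with edgeR 4.0.16 (filterByExpr, TMM, quasi-likelihood, R 4.3.3) with Benjamini-Hochberg adjustment over all tested genes. Day 5 and day 7 have 1 library each, and replicate numbers were given in accession order. The fits of the classes and of the 2 kinds had the library as a block. Their p-values measure how much the difference within a library varied from library to library, not the spread of levels between libraries. For the day slope, p-values measure the spread between libraries. For UMI shares, nuclei were thinned to 1000 UMIs, and 10 members with fewer were left out. Named genes were the 16 of the rule, the 10 largest called differences in each direction that reached 50 CPM and held in every library, and from each list the 4 called genes with the highest level (2 of any kind where fewer than 2 were called); 1 gene so named is not reported here. On simulated counts the class fit recovered 182 of 182 and the fit of the 2 kinds 167 of 183 genes changed by a log2 value of 2. Promoters came from RefSeq (GRCm38.p6), gene positions from GENCODE.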

Additional observations from a re-analysis of the deposited data

Results flagged for a closer look

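For some named genes the difference between members and Mrc1-high nuclei had one sign in both day 3 libraries and the other at day 5 or day 7. Each later day is a single library, that of day 7 with 16 members and 11 Mrc1-high nuclei, and these differences between days were not tested. For Apoe the difference (members minus Mrc1-high, in CPM) was -37.9 and -317 at day 3 and 23.3 at day 7. For Cd86 it was 6.46 and 5.68 at day 3, then -45.3 at day 5 and -404 at day 7. For Hif1a it was 65.5 and 38.9 at day 3 and -150 at day 7. For Il13ra1 it was 20.5 and 11.6, then -83.5 at day 7, and for Lilrb4a 75.8 and 29.8, then -1.09 at day 7. For Nfkbiz it was -29.9 and -8.43 at day 3, then 4.23 at day 5 and 63.0 at day 7. For the cell cycle genes it was -17.8 and -13.3, then 27.1 and 23.3 for Diaph3, and 11.9 and 1.08, then -17.2 and -30.1 for Ezh2.

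Uninjured replicate 1 held 29 EGFP and 14 tdTomato UMIs, spread over 24 and 12 barcodes, although the labels name only C57BL6 mice. No member carried any of them, and the other libraries that list these reporter genes had 0 UMIs.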

How the results depend on the processing

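Shares moved with the score ratio, the depth, the quality limits and the removal of myofibre RNA. With A at least 2 times M they were 0.169% in uninjured replicate 2, 4.52% and 7.27% at day 3 and 2.48% at day 5, and thinned to 1000 UMIs 3.00% and 3.91% at day 3 and 2.00% at day 5. With 5% mitochondrial UMIs and no ribosomal limit they were 6.32% in day 3 replicate 2 and 0.465% at day 7. Without nuclei holding myofibre RNA, an alternative chosen after seeing the data, day 3 replicate 1 was at 13.9%. Members there went from 48 to 46 and nuclei from 753 to 330. The excess of day 3 over uninjured periosteum, 8.75 percentage points, was 3.35 after thinning and 13.2 without myofibre RNA. Uninjured and fracture libraries could not be paired, because the replicate numbers were given in accession order. The fits of the classes and of the 2 kinds were paired within each library through the block.

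Against Mrc1-high nuclei, genes higher and lower numbered 23 and 15 with DESeq2, 19 and 26 after thinning, 27 and 24 with scores of 5 or more, 0 and 0 with no library block, and 214 and 205 against other immune nuclei, and 41 were higher without nuclei holding other RNA. The fits after thinning, with scores of 5 or more and without other RNA also lacked day 7, which had too few nuclei, and leaving out day 7 alone gave 42 and 42. Leaving out 1 library gave 4 to 115 higher and 1 to 79 lower, the fewest without day 3 replicate 2 (4 and 1) and 17 and 10 without day 5. DESeq2 shared 37 of its 38 calls with edgeR. The other immune nuclei met the same immune and osteoclast limits, held no UMI of the A genes and had an M score below 4. Nuclei rich in the M genes were thus left out of that class. Against other immune nuclei some genes changed sign, with log2 differences of 1.5 for Apoe, -0.28 for Fbxo32, 0.61 for Il4ra, 0.99 for Maf, -0.18 for Myo18b, 1.22 for Npl, 0.70 for Pdgfc, 0.94 for Rbpj, 0.93 for Selenop, 1.20 for Sirpa and 1.60 for Stab1, since that class is another one.

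Between the kinds, genes higher and lower in Arg1-leading members numbered 1 and 5 with DESeq2, 0 and 0 without TMM, with A of 5 or more or with no library block, 20 and 56 with no filter, 12 and 5 after thinning, and 7 higher without myofibre RNA, where Ttn turned to 0.63. Leaving out 1 library gave 0 to 6 higher and 0 to 10 lower, with 1 and 0 without day 3 replicate 1 and 0 and 0 without day 5. The fit without other RNA was not run, since too few libraries held 10 nuclei of each kind. For the day slope DESeq2 called 5 and 1, no filter gave 15 and 45, and every other alternative run gave 0 and 0. The causes were not tested.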
